A study of Homo sapiens with 4 samples.

Results

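IFITM1, IFITM2, IFITM3 and BST2 encode antiviral membrane proteins, and their probes made up 4 of the 785 gene probes of a NanoString panel, a method that hybridises barcoded probes to RNA and counts them digitally, with no amplification step. The members were chosen by name, and each had a probe in all samples. The panel was read on total RNA from 4 lines of HAP1, a human cell line with a nearly haploid genome that is widely used for knockouts. The wild-type lines carry the numbers 1 and 7 and the MATR3 knockout lines the numbers 1 and 5, with 2 lines in each group and 1 sample of each line. No treatment is named in the labels for any of them, and all lines were grown in the same medium. MATR3 encodes matrin 3, a nuclear protein that binds RNA and DNA. The knockout lines are 2 clones bought from a supplier and the wild-type lines are catalogue controls of that supplier, so a difference between the groups also holds any difference between clones. The p-values concern these lines only. In the main test the spread of each gene was taken partly from genes of similar level, not from its own values alone. The labels do not say whether the lines were grown or assayed together.

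IFITM proteins are small interferon-induced transmembrane proteins that hinder the fusion of virus and cell membranes. IFITM1 is found mainly at the cell surface, and IFITM2 and IFITM3 mainly in endosomes and lysosomes. BST2, also called tetherin, holds budding enveloped viruses on the surface of the infected cell. All are classical interferon-stimulated genes: type I interferon binds the receptor IFNAR1 and IFNAR2, the kinases JAK1 and TYK2 then activate transcription factors, and a complex that holds STAT2 and IRF9 binds a promoter motif, the interferon-stimulated response element (ISRE). IFITM2, IFITM1 and IFITM3 lie in this order on chromosome 11, and BST2 lies on chromosome 19.

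The stretches around the start sites of IFITM1, IFITM3 and BST2 are shown because all 3 carry the ISRE letters, while IFITM1 and BST2 passed the test as higher in the knockout and IFITM3 did not pass. They come from RefSeq on GRCh38.p14, whose promoter table held 3 of the 4 members. Each runs 5′ to 3′ on the strand of the gene, from 150 bases before the start site to 10 bases after it. Capitals mark GAAANNGAAA, where N is any base, the core letters of the ISRE.
IFITM1, chr11:313890-314049, plus strand: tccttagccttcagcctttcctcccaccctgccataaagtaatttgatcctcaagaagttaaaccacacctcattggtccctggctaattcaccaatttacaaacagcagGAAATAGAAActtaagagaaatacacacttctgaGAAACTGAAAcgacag
IFITM3, chr11:320851-321010, minus strand: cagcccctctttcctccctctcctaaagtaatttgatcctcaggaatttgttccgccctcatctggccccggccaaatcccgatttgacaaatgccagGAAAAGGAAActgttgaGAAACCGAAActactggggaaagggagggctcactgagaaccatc
BST2, chr19:17405621-17405780, minus strand: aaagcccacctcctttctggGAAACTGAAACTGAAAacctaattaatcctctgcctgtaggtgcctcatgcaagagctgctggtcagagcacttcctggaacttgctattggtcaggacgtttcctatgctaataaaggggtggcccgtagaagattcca

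Each of the 3 windows held 2 matches to GAAANNGAAA on the strand of the gene. Counted from the start site, they began at bases -40 and -6 in IFITM1, at -52 and -35 in IFITM3 and at -130 and -124 in BST2, where they overlap by 4 bases. On either strand, 996 of 27305 RefSeq promoter windows of 300 bases (3.65%) held these letters, as did 62 of the 587 windows that belong to panel genes (10.6%). The longest run of letters shared by the IFITM1 and BST2 windows was GAAACTGAAAC, at their ISRE matches, and this run was present in 0.0696% of all windows and 0.852% of those of panel genes. It was picked because both genes share it, so its rarity is a description only. No pair with IFITM3 was searched in this way. The printed stretches of IFITM1 and IFITM3 share a longer run, taaagtaatttgatcctca, outside their ISRE matches. The letters TTCNNNGAA, the core of the gamma-activated site, matched 1 time in IFITM1, overlapping an ISRE match, 2 times in BST2, of which 1 overlaps an ISRE match, and in 7.88% of all windows. Over the 250 bases before the start site, IFITM1 and IFITM3 had 165 identical bases among 238 aligned (69.3%), against 126 among 210 for IFITM1 and BST2 and 130 among 226 (57.5%) for IFITM3 and BST2. These matches are descriptions of letters, and binding was not measured here.

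Total gene counts lay between 448610 and 571767 per sample. A background limit, the mean plus 2 SD of the 8 negative control probes of a sample, lay between 19.5 and 25.7 normalised counts, and all 4 members exceeded it in all 4 lines. BST2 was far above it, at 77.2 to 130.0 times the limit, and IFITM2 was close to it, at 1.44 to 2.74 times. Of 17 listed blood cell markers, 14 were measured, and PTPRC, the pan-leukocyte antigen, lay between 6.68 and 9.39 in all lines, under the limit. The summed level of these 14 markers was 225 in wild-type line 1, 285 in wild-type line 7, 226 in knockout line 1 and 171 in knockout line 5. Of these markers only CD14 and CD68 lay above the limit in every line, at no more than 45.4.

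IFITM1 was higher in the MATR3 knockout lines. Its normalised count was 150.2 in wild-type line 1, 172 in wild-type line 7, 464 in knockout line 1 and 745 in knockout line 5. Both knockout values stood above both wild-type values, as they did in 22.4% of all tested genes, and the knockout lines were further apart than the wild-type lines. The counts behind these values were 144, 201, 417 and 716 in the same order, and their exact Poisson 95% intervals, which cover counting error only, ran from 127 to 177, 149 to 197, 421 to 511 and 692 to 802 normalised counts. The group means were 161 ± 15.4 for wild type and 605 ± 199 for knockout (SD, n = 2), a ratio of 3.75.

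The difference was tested with limma on log2(value + 1) over all 514 genes with a mean of 20 or more. IFITM1 rose by 1.86 ± 0.19 on the log2 scale (SE; 95% interval 1.45 to 2.28; limma adjusted p = 6.09e-05), the third largest increase of all tested genes. Under limma without the trend, where 4 genes passed in place of 42, its adjusted p was 0.095. At the threshold, an adjusted p under 0.05, 6.23% of tested genes were higher in the knockout and 1.95% were lower, 8.17% in all. This is 32 higher and 10 lower genes, a split that became 54 and 8 with scaling on the reference genes without TBP and 40 and 29 with cyclic loess. The size depended on the knockout line. The log2 fold change was 2.21 without knockout line 1 and 1.52 without knockout line 5. With 1 knockout line left, such a fit cannot see the spread between knockout lines, so only its size is given here. Knockout line 5 exceeded knockout line 1 by 1.61 times (95% interval 1.42 to 1.82 from the counts), while the wild-type lines differed by 1.14 times (0.920 to 1.43), an interval that holds 1.

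**Figure D1:**
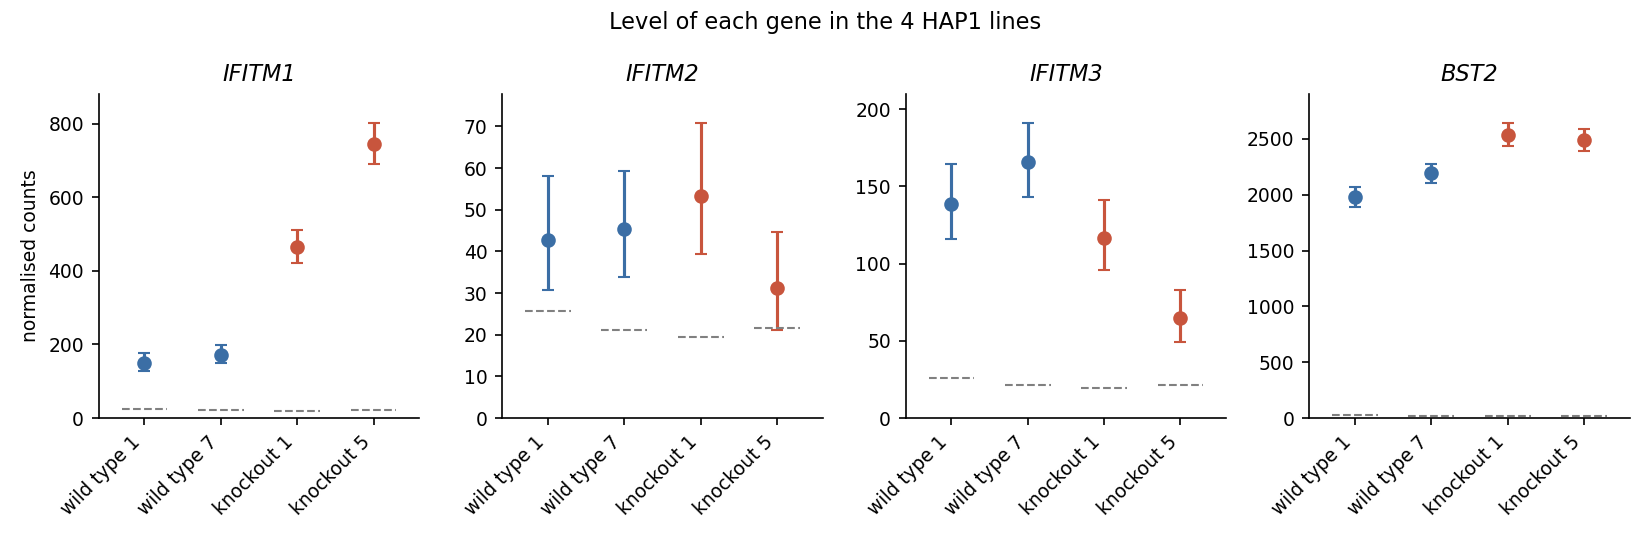
Normalised counts of IFITM1, IFITM2, IFITM3 and BST2 (vertical axes, each from 0) in wild-type lines 1 and 7 (blue) and MATR3 knockout lines 1 and 5 (red). Points are single samples, bars are exact Poisson 95% intervals for counting error, and dashed lines are the background limit of each sample; IFITM1 is at 464 and 745 in the knockout against 150.2 and 172 in the wild type, while IFITM3 is lowest in knockout line 5, at 64.5.

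IFITM3, the paralog that acts mainly in endosomes, had its lowest values in the knockout lines. Its normalised count was 139 in wild-type line 1, 166 in wild-type line 7, 117 in knockout line 1 and 64.5 in knockout line 5. Groups did not overlap, as in 53.1% of all tested genes (30.7% with the knockout lower). The group means were 152 ± 19.3 and 90.7 ± 37.0 (SD, n = 2), and the log2 fold change was -0.80 ± 0.25 (SE; 95% interval -1.36 to -0.24). With a limma adjusted p of 0.0868 it did not pass the threshold.

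Most of the separation of IFITM3 lay in knockout line 5. In the order of the levels, wild-type line 7, wild-type line 1 and knockout line 1 were neighbours whose ratios, 1.20 (0.954 to 1.503) and 1.19 (0.913 to 1.55), had 95% intervals that hold 1. Knockout line 1 was then 1.81 times knockout line 5 (1.31 to 2.52). Without knockout line 5 the log2 fold change was -0.37, and without knockout line 1 it was -1.22. The summed level of the 14 blood cell markers was also lowest in knockout line 5 and highest in wild-type line 7, and so was that of the 271 genes under the filter, which summed to 3055 in wild-type line 1, 3851 in wild-type line 7, 3004 in knockout line 1 and 2307 in knockout line 5. Of the 66 tested genes with a mean from 100 to 200, the range in which IFITM3 lies, 29 had a log2 fold change below 0, with a median of 0.05. What part the differences in low-level signal had in the IFITM3 values was not tested. With the mean of the negative control probes subtracted from each sample, the log2 fold change of IFITM3 was -0.86.

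IFITM2, the third gene of the cluster and also mainly endosomal, was measured least precisely. Its normalised count was 42.8 in wild-type line 1, 45.4 in wild-type line 7, 53.4 in knockout line 1 and 31.2 in knockout line 5. Knockout lines were the highest and the lowest of the 4, so the groups overlapped. Only 30 to 53 counts stood behind each value, and 0 of the 3 ratios between neighbouring levels had an interval without 1. The group means were 44.1 ± 1.82 and 42.3 ± 15.7 (SD, n = 2), so the log2 difference was -0.11 ± 0.32 (SE; adjusted p = 0.875 with limma). The 95% interval of -0.81 to 0.60 leaves room for changes of either sign that could not be detected at this depth. The sign turned without knockout line 5, at 0.27, and with cyclic loess, at 0.13. Of the 173 tested genes with a mean from 20 to 50, the range in which IFITM2 lies, 144 had a log2 fold change below 0, with a median of -0.43.

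BST2 was slightly higher in the knockout lines. Its normalised count was 1981 in wild-type line 1, 2191 in wild-type line 7, 2536 in knockout line 1 and 2489 in knockout line 5. Groups did not overlap, again as in the 22.4% of tested genes with the knockout higher, and here the knockout lines were closer to each other than the wild-type lines. This depended on the scaling. With scaling on the positive control probes, the log2 ratio of knockout line 5 to knockout line 1 was -0.23, and that of wild-type line 7 to wild-type line 1 was 0.18. The ratio of knockout line 1 to knockout line 5 was 1.02 (95% interval 0.962 to 1.08), that of knockout line 5 to wild-type line 7 was 1.14 (1.07 to 1.20), and that of wild-type line 7 to wild-type line 1 was 1.11 (1.04 to 1.17). The step from the lower knockout line to the higher wild-type line was therefore about as large as the step between the wild-type lines. The group means were 2086 ± 149 and 2513 ± 33.1 (SD, n = 2), and BST2 rose by 0.27 ± 0.07 on the log2 scale (SE; 95% interval 0.11 to 0.43; limma adjusted p = 0.0461). That is a ratio of means of 1.20, against 3.75 for IFITM1. The call was lost on leaving out wild-type line 1 (adjusted p = 0.203), or knockout line 1 (0.0909), or knockout line 5 (0.0957), where the log2 difference lay between 0.20 and 0.28.

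**Figure D2:**
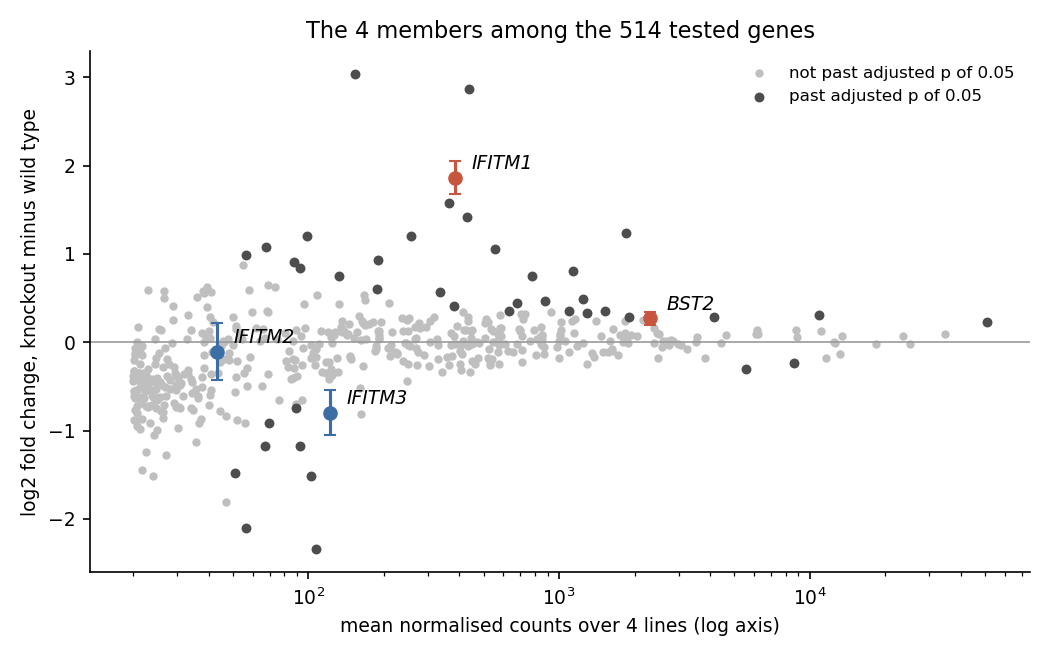
Log2 fold change, knockout minus wild type, against the mean normalised count over the 4 lines (log axis) for the 514 tested genes. Dark points passed a limma adjusted p of 0.05 and grey points did not; the members carry bars of 1 SE, and IFITM1 stands at 1.86 and BST2 at 0.27 (red), IFITM2 at -0.11 and IFITM3 at -0.80 (blue).

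The paralogs were also set against each other within each line, since the ratio of genes in 1 sample does not depend on how samples were scaled. Probes differ in how well they bind, so only changes of a ratio can be read, not which gene is more abundant. The log2 ratio of IFITM1 to IFITM3 was 0.11 in wild-type line 1, 0.05 in wild-type line 7, 1.98 in knockout line 1 and 3.51 in knockout line 5. It was 2.66 higher in the knockout on average, a 6.33-fold shift, from 0.08 ± 0.04 to 2.74 ± 1.08 (SD, n = 2). All knockout values exceeded all wild-type values, but an exact two-sided permutation test of 2 lines against 2 cannot go below p = 0.333, the value found here. Leaving out each line in turn gave shifts of 1.90 to 3.43.

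The log2 ratio of IFITM1 to IFITM2 was 1.79 and 1.90 in the wild-type lines, 3.10 in knockout line 1 and 4.53 in knockout line 5. This ratio too was higher in both knockout lines, by 1.97 on average. IFITM2 over IFITM3 went from -1.67 and -1.85 to -1.11 and -1.02, a shift of 0.69, and here the knockout lines lay close together. The exact permutation p was again 0.333 for each, the smallest possible. In knockout line 5 IFITM1 was higher and IFITM2 and IFITM3 were lower than in knockout line 1. For IFITM2 this ratio was 0.584 (95% interval 0.358 to 0.941) and for IFITM3 it was 0.552 (0.397 to 0.763). The 3 genes are close paralogs, and the sequences of their probes were not used here, so how far a probe also counts RNA of another IFITM gene was not tested.

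**Figure D3:**
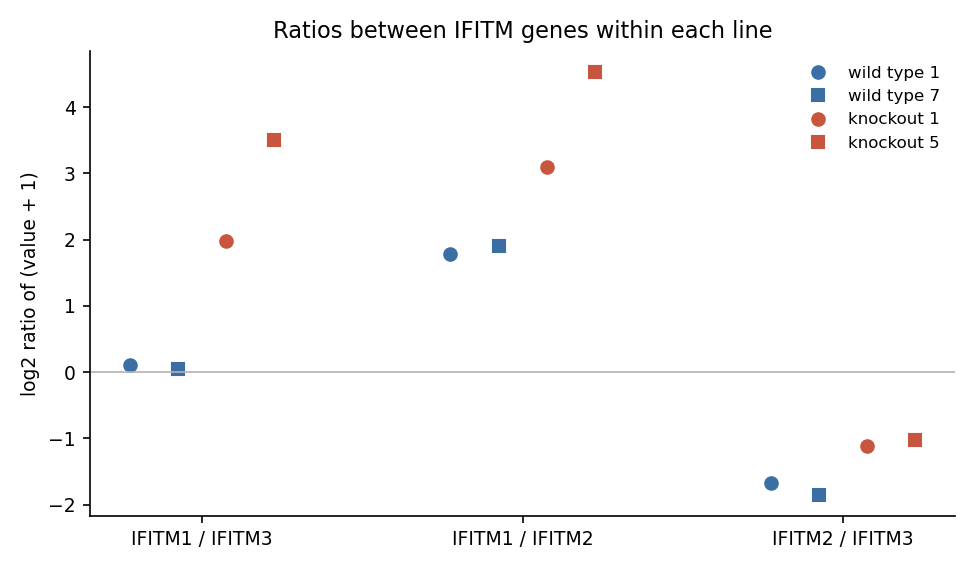
Log2 ratio of (value + 1) between IFITM genes within each line; blue points are wild-type lines 1 (circle) and 7 (square), and red points are knockout lines 1 (circle) and 5 (square). IFITM1 over IFITM3 is at 0.11 and 0.05 in the wild type and at 1.98 and 3.51 in the knockout.

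On the chromosome, the panel gene that follows the IFITM cluster is SIGIRR, an inhibitory receptor of the interleukin 1 family, and after it comes IRF7, a transcription factor of the interferon response. No panel gene precedes the cluster. SIGIRR was at 781 and 695 in the wild-type lines against 1034 and 1011.5 in the knockout lines, and rose by 0.47 ± 0.09 on the log2 scale (SE; limma adjusted p = 0.00724). IRF7 was at 31.3 and 35.1 in the wild type against 24.5 and 27.1 in the knockout, a log2 difference of -0.35 ± 0.34 (SE; adjusted p = 0.554). Of the 29 other tested genes of chromosome 11, SIGIRR passed as higher and CD44 as lower, with a median log2 fold change of 0.01.

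The panel genes before BST2 are ADGRE5 and AP1M1, and those after it are JAK3 and IL12RB1. ADGRE5, an adhesion receptor, differed by -0.34 ± 0.17 on the log2 scale (SE; limma adjusted p = 0.295), AP1M1, a clathrin adaptor subunit, by -0.14 ± 0.10 (SE; adjusted p = 0.449) and IL12RB1, a cytokine receptor chain, by -0.36 ± 0.41 (SE; adjusted p = 0.61). JAK3 was under the filter, at 4.16 to 13.6. Of the 31 other tested genes of chromosome 19, CD70 passed as higher and OAZ1 as lower, with a median log2 fold change of -0.17. The shares over all tested genes were again 6.23% higher and 1.95% lower.

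The pathway that induces these genes was read by role, from lists of interferon system genes. Of the interferons, 9 of 20 listed genes were measured and 6 were tested. With limma or with edgeR 0 passed, against 8.17% of all tested genes with limma. At an unadjusted p under 0.05 there were 2, IFNA6 and IFNK, beside 102 of all 514 tested genes. Of the 6, all but IFNA6 had a mean from 20 to 50. At that level 0 of 173 tested genes passed with limma, so 0 passing cannot show that the interferons were unchanged. IFNB1, the interferon made downstream of cGAS and STING, was at 24.0 and 27.4 in the wild-type lines against 20.03 and 18.7 in the knockout lines, near the background limit, and the log2 difference of -0.39 ± 0.39 was within its error (SE; adjusted p = 0.579). The 6 tested interferons had log2 fold changes from -0.996 (IFNK) to -0.39 (IFNB1). Of the 173 tested genes with a mean from 20 to 50, 144 were also below 0, with a median of -0.43.

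Of the 5 measured receptor genes, 0 passed with limma or edgeR, against 8.17% of all tested genes with limma. At an unadjusted p under 0.05 there was 1, IFNGR2, beside 102 of all 514 tested genes. With so few genes, 0 passing cannot be told from the share over all genes. IFNAR1 was at 713, 654, 639.9 and 711 in the 4 lines, which differ by -0.02 ± 0.10 on the log2 scale (SE; limma adjusted p = 0.941), and IFNAR2 at 396, 397, 409.5 and 464, or 0.14 ± 0.11 (SE; adjusted p = 0.478). IFNGR2, a chain of the interferon gamma receptor, was at 1722 and 1645 in the wild type against 1993 and 1998 in the knockout, a log2 difference of 0.25 ± 0.07 (SE; adjusted p = 0.0598), close to that of BST2 but on the other side of the threshold.

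Of the 10 measured genes that relay the signal, 0 passed with limma or edgeR, against 8.17% of all tested genes with limma. At an unadjusted p under 0.05 there were 0, beside 102 of all 514 tested genes. With 10 genes, 0 passing the threshold cannot be told from the share over all genes. The log2 fold change was 0.05 ± 0.15 (SE) for STAT2, 0.13 ± 0.30 for IRF9, -0.27 ± 0.17 for JAK1, -0.06 ± 0.14 for TYK2 and 0.05 ± 0.22 for IRF1. Among 4 measured inhibitors, SOCS1 was at 19.8 and 26.5 in the wild type against 16.7 and 21.9 in the knockout, near background.

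The other antiviral effectors split in direction. Of 55 listed genes 35 were measured and 24 tested, of which 13 had a log2 fold change above 0 and 11 below, with a median of 0.10 against -0.04 over all tested genes. ISG15, a ubiquitin-like protein also listed as an inhibitor for its hold on the interferon response, was the only one to pass (4.17% of the list, against 8.17% of all tested genes). Several genes of the list, among them IFIT2, IFIT3, OAS1, OAS2 and OAS3, had a mean from 20 to 50. At that level 0 of 173 tested genes passed, so the lower share cannot be read as a weaker response. ISG15 was at 58.4 and 59.0 in the wild-type lines against 119 in knockout line 1 and 157 in knockout line 5, and rose by 1.21 ± 0.21 on the log2 scale (SE; limma adjusted p = 0.00387). IFIT1, which binds foreign RNA caps, was at 105 and 89.0 in the wild type against 87.9 and 59.3 in the knockout, and OAS1, an activator of RNase L, at 28.2 and 41.9 against 20.03 and 6.24; their adjusted p were 0.347 and 0.13. At an unadjusted p under 0.05 there were 6 of the 24, beside 102 of all 514 tested genes. Besides ISG15 these were DDX58 (0.43), IFI6 (0.60) and EIF2AK2 (0.24), with log2 fold changes above 0, and OAS1 (-1.52) and IFI16 (-1.80), with values below 0; the latter 5 did not pass after adjustment. MX1 lay at 3.34 to 10.4, below background. Of all 47 tested genes of the interferon lists, which do not hold the 4 members, 1 passed (2.13%, against 8.17% of all tested genes). This share too includes genes with a mean from 20 to 50. It also depends on which genes were listed. PSMB8, PSMB9, TAP1 and DTX3L passed and are in none of these lists. Of the 4 members 2 passed, IFITM1 and BST2, and the members were chosen with these results known. Without knockout line 1, 7 of the 47 passed, of which 6 were lower, beside 77 of all 514 tested genes in the same fit, of which 47 were lower. CD81, a tetraspanin that associates with IFITM1 at the B cell surface, was at 3062, 2928, 2922 and 2993 in the 4 lines, a log2 difference of -0.02 ± 0.07 (SE; adjusted p = 0.898).

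**Figure D4:**
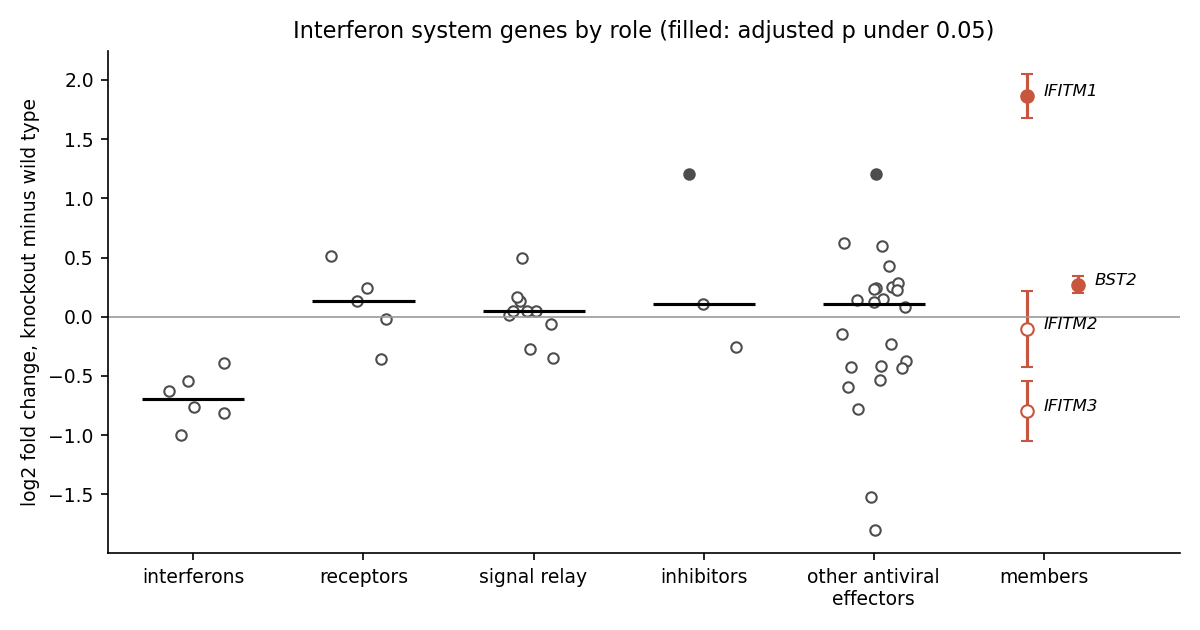
Log2 fold change, knockout minus wild type, of tested interferon system genes grouped by role, beside the 4 members with bars of 1 SE (red). Filled points passed a limma adjusted p of 0.05 and black lines are group medians; ISG15, drawn in both lists that hold it, is at 1.21, and the median of the other antiviral effectors is 0.10.

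The ISRE letters were shared by genes that did and did not change. Of 59 other panel genes with GAAANNGAAA in their promoter window, 38 were tested, and 5 (13.2%) passed against 8.17% of all tested genes. VCAM1, ISG15, DTX3L and TAP1 were higher, and OAZ1 was lower. The median log2 fold change of the 38 was -0.12, with 16 above 0 and 22 below. OAZ1 is also among the reference genes on which the samples appear to have been scaled. So is TBP, which passed the threshold too. With TBP left out of the scaling, the log2 fold change of BST2 was 0.35 in place of 0.27.

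Genes with the most similar profile over the 4 lines were found by the root mean square (RMS) difference of log2(value + 1), centred on each gene's mean, among genes with a mean of 50 or more. For IFITM1 these were PSMB8, an immunoproteasome subunit (RMS difference 0.23), LITAF, a late endosome protein (0.32), and ISG15 (0.35), where the median gene differed by 0.95. PSMB8 was at 199 and 159 in the wild-type lines, at 424 in knockout line 1 and at 672 in knockout line 5. It shared with IFITM1 and ISG15 a higher value in knockout line 5 than in knockout line 1, while LITAF was level between the knockout lines, at 615 and 633.

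For IFITM3 the nearest were HLA-DRB (0.09), KIR2DL1 (0.15) and JUN (0.15), with a median gene at 0.53. HLA-DRB and KIR2DL1 are genes of antigen-presenting and natural killer cells. HLA-DRB was at 84.5 and 102 in the wild type against 74.6 and 45.8 in the knockout, KIR2DL1 at 62.6 and 79.6 against 56.8 and 23.9, and JUN, a transcription factor subunit, at 103 and 127 against 85.7 and 61.4. All 3, like IFITM3, were highest in wild-type line 7 and lowest in knockout line 5, which goes with being picked for a similar profile. For IFITM2 the nearest were ACKR4 (0.13), JAK1 (0.14) and DDAH2 (0.14), with a median gene at 0.31, and those near BST2 included NFKB2 (0.04) and SCARB2 (0.05), with a median gene at 0.18. Likeness over 4 samples is a description, and many genes have a profile near that of BST2.

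**Figure D5:**
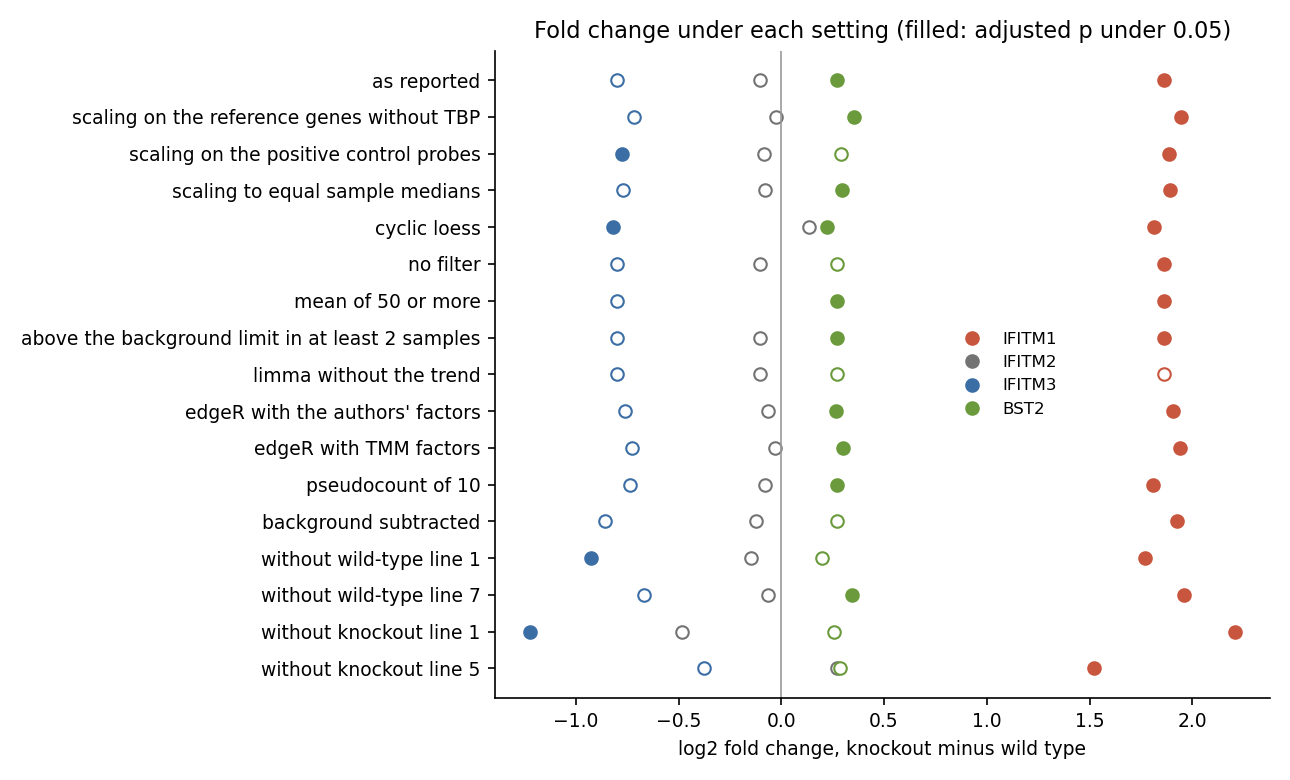
Log2 fold change of the 4 members (horizontal axis) under each setting (rows); filled points have an adjusted p under 0.05. IFITM1 ranges from 1.52 to 2.21, BST2 from 0.20 to 0.35, IFITM3 from -1.22 to -0.37, and IFITM2 from -0.48 to 0.27.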

How the data were processed

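The deposited gene values are a normalised signal, and per the values the authors multiplied whole probe counts by 1 factor per sample (1.04, 0.856, 1.11 and 1.04 for wild-type lines 1 and 7 and knockout lines 1 and 5). In every sample 100.0% of values above 2 were whole multiples within 0.006; 4 values of wild-type line 7 stood at 1.00. Control probes were unscaled counts. Of 13 measured reference genes, 10, TBP among them, had equal geometric means in all samples, which scaling on them would give; the labels name no method. R 4.1.1 is named in the submitters' processing notes.

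The fit was limma 3.58.1 in R 4.3.3 (lmFit, eBayes with trend) on log2(value + 1), over 514 genes with a mean of 20 or more, without covariates, with Benjamini-Hochberg adjustment over all of them. It was also run on simulated data, with counting error and the same small spread between lines for every gene. That run does not show how the fit behaves where lines differ more, as the knockout lines did for IFITM1. All p-values are two-sided. Counting intervals came from scipy 1.17.1. Biopython 1.88 aligned promoters. edgeR 4.0.16 ran on the recovered counts as an alternative. Members, lists and alternatives were chosen with earlier results of these data known. Named were the members, list genes past the threshold, 16 interferon system genes fixed by name, the 3 nearest profiles and the 2 nearest panel genes on each side; others were chosen after their values were seen. Some genes that this rule names are not reported here.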

Additional observations from a re-analysis of the deposited data

How the results depend on the processing

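No paired analysis was run, because the labels pair no wild-type line with a knockout line. The number 1 occurs in both groups but names separate lines. IFITM1 passed in 15 of 16 alternatives and lost its call only under limma without the trend (log2 fold change 1.86, adjusted p = 0.095); without single lines it ranged from 1.52 to 2.21. IFITM2 passed in none of 15 alternatives, and turned to 0.13 with cyclic loess; without single lines it ranged from -0.48 to 0.27. It had no value with a filter at a mean of 50. IFITM3 passed with scaling on the positive control probes (-0.78, adjusted p = 0.0284) and with cyclic loess (-0.82, adjusted p = 0.00358), and ranged from -1.22 to -0.37 without single lines, passing without wild-type line 1 or knockout line 1. BST2 did not pass with scaling on the positive control probes (0.29, adjusted p = 0.162), without a filter (0.27, adjusted p = 0.0524), under limma without the trend (0.27, adjusted p = 0.322) or with background subtracted (0.27, adjusted p = 0.0628), and ranged from 0.20 to 0.34 without single lines. Scaling moved the median log2 fold change of all tested genes from -0.04 to at most 0.04. The number of genes called, 42, was 69 with cyclic loess (40 higher, 29 lower), 62 without TBP in the scaling (54 higher, 8 lower), 4 under limma without the trend, and 29 to 77 without single lines. Of the interferon lists 1 gene, ISG15, passed; the number was 3 without TBP in the scaling, 3 with positive control scaling, 2 with equal medians, 5 with cyclic loess, 2 with a filter at 50, 0 without the trend, 2 with edgeR and TMM factors, and 2 to 7 without single lines, the 7 being without knockout line 1. The cause of these changes was not tested. In the fits without a wild-type line limma took the spread wholly from the trend, and the lone line left in a group is assumed to vary like the others. Of 24 recomputed differences between lines of a group, 22 stayed within their counting interval and 0 reversed. The 2 that moved were between the knockout lines, with scaling on the positive control probes. The log2 ratio of knockout line 5 to knockout line 1 was then 0.49 for IFITM1 and -0.23 for BST2.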
